A study of Rattus norvegicus with 15 samples.

Results

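Transcripts of 8 genes were followed in rat mammary tumours: Esr1, Pgr and Prlr, the receptors for oestrogen, progesterone and prolactin, Erbb2, Erbb3 and Egfr of the ERBB receptor family, and the transcription factors Gata3 and Foxa1. They were taken by name, through the accession that the array gives each probe and the rat symbol of that accession. The array held 9 probes for them, 1 per gene and 2 for Egfr, among 41012 probes in all. Only probes that were well above background on 5 or more of 15 arrays were tested. That left 21010 probes in all and 7 of the 9, of 6 genes.

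The tumours came from female Sprague-Dawley rats whose dams ate chow with 3 mg/kg zinc (deficient), 35 mg/kg (adequate, labelled as the negative control) or 180 mg/kg (supplemented), with 16 dams in each group. The dams were given the chow from day 10 of gestation until weaning on day 21, and their daughters stayed on it until day 51. On day 51 every rat, controls included, was gavaged once with 50 mg/kg DMBA, a carcinogen that produces mammary tumours in rats, and all were fed adequate chow from then on. Tubular or papillary tumours were taken on day 180, and 5 tumours per diet were hybridised to single-colour Agilent arrays. A free-text label places the samples in mammary gland at day 21, but the tissue and age fields and the design give tumours at 180 days. Nothing in the labels says that the 5 tumours of 1 diet grew in different rats or litters, and p-values therefore speak only for the spread among the tumours at hand.

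The mammary duct has an inner luminal and an outer basal layer, and only part of the luminal cells carry the oestrogen and progesterone receptors. Progesterone receptor is itself a target of the oestrogen receptor, prolactin receptor signals through JAK2 and STAT5, and Gata3 and Foxa1 keep luminal identity and open chromatin for the oestrogen receptor. The ERBB receptors are tyrosine kinases that act in pairs: Egfr binds ligands such as epiregulin, Erbb2 has no known ligand of its own, and Erbb3 binds neuregulins but needs a partner with an active kinase. Tumours induced by DMBA in rats are known to depend on ovarian hormones and prolactin.

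The promoters of Gata3, Prlr, Esr1 and Pgr are shown because the levels of Gata3 and Prlr varied together between tumours, and those of Esr1 and Pgr did so with the processed signals but not with normexp, a model-based background correction of the raw spot signals. Each line gives the 250 bases before an annotated start on the plus strand, from RefSeq with the rat build GRCr8, and Prlr has 2 starts. Capitals mark matches, on either strand, to a STAT motif (TTCNNNGAA) or to the GC box GGGCGG, the motif of the factor Sp1, and all other bases are in lower case.
Gata3, chr17:73553298-73553547: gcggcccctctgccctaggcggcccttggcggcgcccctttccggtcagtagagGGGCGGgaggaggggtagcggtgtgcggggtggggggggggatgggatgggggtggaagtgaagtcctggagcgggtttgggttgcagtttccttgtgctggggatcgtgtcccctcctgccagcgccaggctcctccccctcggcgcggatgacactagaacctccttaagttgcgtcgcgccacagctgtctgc
Prlr, first start, chr2:60861515-60861764: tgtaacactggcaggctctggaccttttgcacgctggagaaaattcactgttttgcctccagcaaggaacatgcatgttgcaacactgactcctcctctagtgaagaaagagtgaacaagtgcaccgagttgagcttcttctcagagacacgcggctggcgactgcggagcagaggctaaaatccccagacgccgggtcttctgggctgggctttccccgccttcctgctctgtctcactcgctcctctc
Prlr, second start, chr2:60909409-60909658: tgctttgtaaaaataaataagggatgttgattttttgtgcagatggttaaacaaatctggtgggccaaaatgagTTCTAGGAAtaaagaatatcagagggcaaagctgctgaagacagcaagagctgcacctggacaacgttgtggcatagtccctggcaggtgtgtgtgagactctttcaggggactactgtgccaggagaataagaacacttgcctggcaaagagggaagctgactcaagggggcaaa
Esr1, chr1:43641845-43642094: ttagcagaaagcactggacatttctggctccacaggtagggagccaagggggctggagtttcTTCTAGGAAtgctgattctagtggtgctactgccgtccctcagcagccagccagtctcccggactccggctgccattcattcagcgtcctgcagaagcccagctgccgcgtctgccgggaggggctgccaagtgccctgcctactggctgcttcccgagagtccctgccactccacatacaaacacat
Pgr, chr8:14354148-14354397: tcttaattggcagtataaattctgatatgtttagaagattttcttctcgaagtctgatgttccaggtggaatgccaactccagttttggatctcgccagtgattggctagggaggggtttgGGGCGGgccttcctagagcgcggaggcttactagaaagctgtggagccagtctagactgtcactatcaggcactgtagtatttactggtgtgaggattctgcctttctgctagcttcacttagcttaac
The second Prlr start and Esr1 each held 1 STAT match, with the same 9 letters, and 7.67% of the 33469 rat promoter windows of this length held 1 or more. Gata3 and Pgr each held 1 GC box, as did 30.5% of all windows. The first Prlr window matched none of the motifs searched. No match was found in these 5 windows to a GATA motif (AGATAA), an oestrogen receptor half-site (AGGTCA) or a forkhead motif (TGTTTAC), which occurred in 10.3%, 14.1% and 3.21% of all windows. The windows of Erbb2 and Egfr each held 1 GC box and no other match. A match describes the letters and not a bound site.

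Markers of epithelium, and also of stroma and macrophages, were present. All 8 luminal markers on the list (Krt8, Krt18, Krt19, Epcam, Cdh1, Cldn3, Cldn4 and Cldn7) were well above background on all 15 arrays, and their mean level ran from 4.25 to 4.64 in deficient, 4.25 to 4.60 in control and 4.11 to 4.58 in supplemented tumours. Well above background on every array were also 8 of 10 basal, 5 of 8 fibroblast and 6 of 9 macrophage markers. The RNA is that of whole tumours, so fewer cells of a type and less RNA per cell cannot be told apart. Levels are log2 of the signal over the 75th percentile of the array, so 0 is the signal of that percentile, and levels of different probes were not set against each other. The arrays differed in brightness: that percentile ran from 50.7 to 177 intensity units, and deficient 4, control 2 and deficient 1 were the dimmest.

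Pgr, Prlr, Erbb2, Egfr and Gata3 stood well above background in all 15 tumours, whereas Esr1, Erbb3 and Foxa1 did not. Foxa1 passed on 5 arrays (deficient 2 and 5, control 1 and 4, supplemented 2), although its single spot was positive and significant against background on all 15. Those arrays were bright, with 52.2 to 55.3% of spots well above background, but control 3, at 54.0%, did not pass. Passing did not follow the level: control 2 had the highest Foxa1 level (-1.27) and did not pass. Esr1 passed on 2 arrays, control 3 and supplemented 2, and not on control 5, where its level was highest (-1.98). Its probe is printed as 10 spots, of which 25 of 150 over all arrays were well above background and 131 of 150 were positive and significant. The Erbb3 spot was well above background on 0 of 15 arrays and positive and significant on 10. No lower bound on a fold between diets could be given for Esr1 or Erbb3, because the detection floor lay above the measured means.

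**Figure D1:**
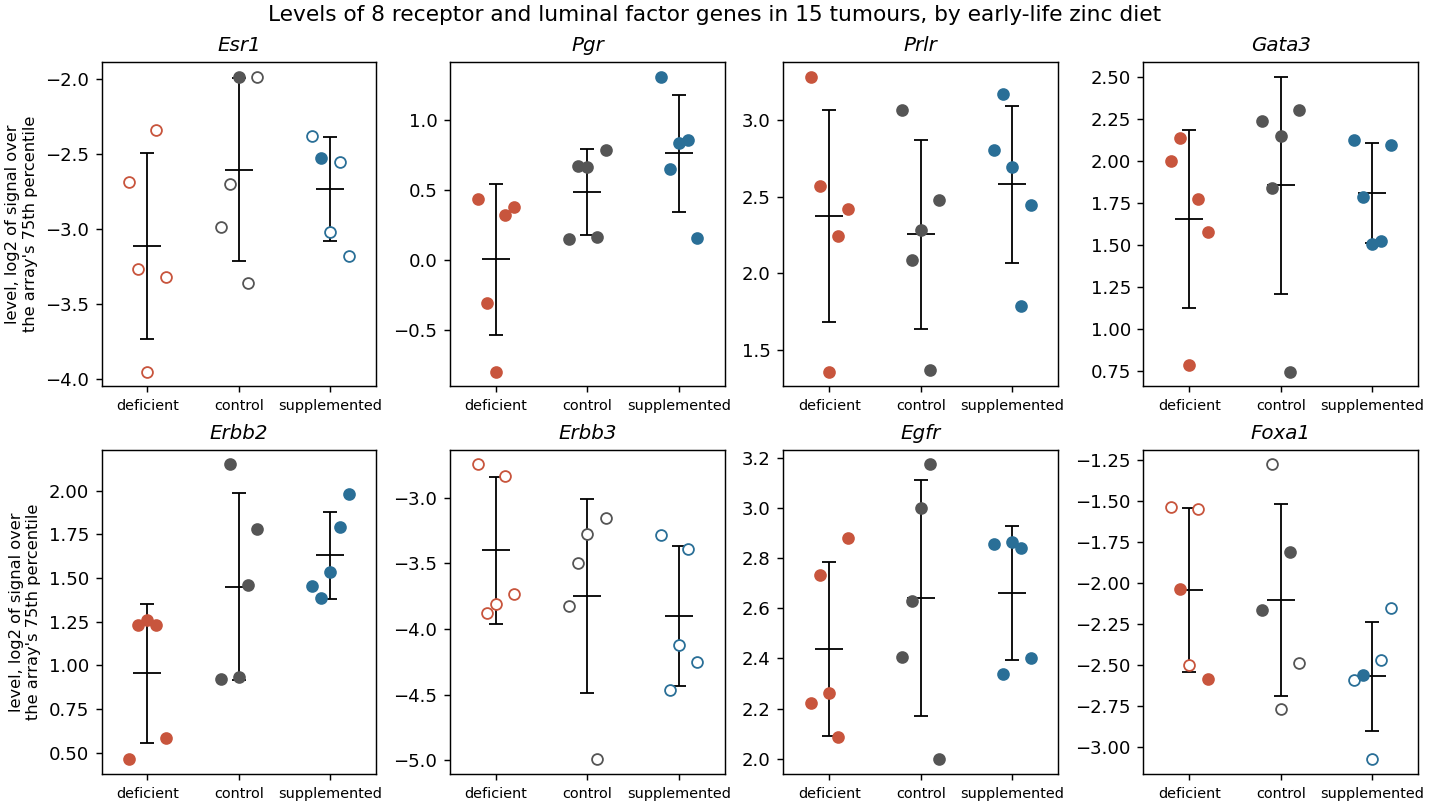
Level of each gene (y axis, log2 of signal over the array's 75th percentile, own scale per panel) in 5 deficient, 5 control and 5 supplemented tumours; bars are mean ± SD, filled points are arrays on which the probe was well above background and open points are not. Erbb2 is the gene whose supplemented and deficient tumours did not overlap, and all 15 Erbb3 points are open.

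None of the 8 genes differed between diets by the adjusted threshold of 0.05, and the 2 with the largest differences were Pgr and Erbb2, both higher in supplemented than in deficient tumours. Pgr was 1.69-fold higher and Erbb2 1.60-fold higher, with the control mean between those of the other diets in both genes. No probe at all was called by limma in any comparison (0 of 21010, 0%), nor by an exact permutation test with the same adjustment. At an unadjusted limma p under 0.05 there were 821 probes (3.91%) for deficient against control, 415 (1.98%) for supplemented against control and 1482 (7.05%) for supplemented against deficient. Of the 7 member probes, those of Pgr and Erbb2 were in the last of these sets and none were in the others. The moderated F test over the 3 diets gave an unadjusted p of 0.0333 for Pgr and 0.0432 for Erbb2 and an adjusted limma p of 0.990 for both.

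Of the hormone receptors, Pgr ranged most between diets. The Pgr level was 0.43, -0.31, -0.80, 0.32 and 0.37 in deficient tumours 1 to 5. In controls it was 0.15, 0.67, 0.66, 0.16 and 0.79, and in supplemented tumours 1.31, 0.65, 0.83, 0.86 and 0.15. Deficient 2 and 3 held the lowest levels and supplemented 1 the highest, while supplemented 5 lay among the deficient tumours, so the groups overlapped. The means ± SD (n = 5) were 0.00 ± 0.54, 0.49 ± 0.31 and 0.76 ± 0.42 in the order deficient, control, supplemented. Supplemented minus deficient was 0.76 on the log2 scale (95% interval 0.20 to 1.31), with an unadjusted limma p of 0.011 and an adjusted p of 0.665. The exact permutation p over the 252 splits was 0.0397 before adjustment. Deficient minus control was -0.48 (-1.04 to 0.07) and supplemented minus control 0.27 (-0.28 to 0.83), so neighbouring diets in this order did not differ beyond their spread. Within the 4 slides, each of which carried all 3 diets with 1 or 2 tumours of each, the supplemented minus deficient difference ran from -0.22 to 1.09. It was positive on 3. With normexp background correction it was 0.41, and in the deposited values 0.44.

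Prlr, whose product activates the JAK2 and STAT5 route in alveolar development, varied more between tumours than between diets. Its level was 3.28, 2.57, 1.36, 2.25 and 2.42 in deficient tumours 1 to 5, 3.07, 2.09, 2.28, 1.37 and 2.48 in controls, and 2.81, 3.17, 2.69, 1.79 and 2.45 in supplemented tumours. Each diet held 1 tumour below its others, deficient 3, control 4 and supplemented 4, and the 3 groups overlapped over most of their range. The means were 2.38 ± 0.69, 2.26 ± 0.62 and 2.58 ± 0.51 (SD, n = 5) for deficient, control and supplemented. The largest difference, supplemented minus control, was 0.33 (-0.43 to 1.08, limma adjusted p = 1.000), and deficient minus control was 0.12 and supplemented minus deficient 0.21. Those last 2 turned negative with another background correction (-0.01 and -0.10), as did supplemented minus control (-0.10).

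Esr1 was measured near its floor, and its values are a description only. The level was -2.68, -3.27, -3.95, -2.34 and -3.32 in deficient tumours, -2.98, -2.70, -1.99, -3.36 and -1.98 in controls, and -2.38, -2.52, -3.02, -2.55 and -3.18 in supplemented tumours. Deficient 3 was lowest and controls 3 and 5 highest, and all 3 groups overlapped. The means were -3.11 ± 0.62, -2.60 ± 0.61 and -2.73 ± 0.35 (SD, n = 5), and in a fit of all probes deficient minus control was -0.51 (-1.22 to 0.20). The median SD between the spots of 1 array was 0.41 for Esr1, against 0.06 for Prlr and 0.10 for Erbb2, which are printed in the same way.

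Of the ERBB receptors, Erbb2 separated supplemented from deficient tumours. Its level was 0.46, 1.23, 1.26, 1.23 and 0.58 in deficient tumours 1 to 5. In controls it was 0.92, 2.15, 0.93, 1.46 and 1.78, and in supplemented tumours 1.46, 1.39, 1.54, 1.79 and 1.98. Every supplemented tumour lay above every deficient tumour, with deficient 1 and 5 lowest, and the control tumours spread across both ranges. Groups that did not overlap occurred in 1.5% of 20979 probes in this comparison, and with the supplemented tumours on top in 0.858%. In the other comparisons no member had groups apart, and 0.391% (deficient against control) and 0.353% (supplemented against control) of probes did. The means were 0.95 ± 0.40, 1.45 ± 0.54 and 1.63 ± 0.25 (SD, n = 5) for deficient, control and supplemented. Supplemented minus deficient was 0.68 (0.14 to 1.21), with an unadjusted limma p of 0.0165 and an adjusted p of 0.678. The exact permutation p was 0.00794, the smallest that 5 against 5 can give, and 0.529 after adjustment over all probes. Deficient minus control was -0.50 (-1.03 to 0.04) and supplemented minus control 0.18 (-0.35 to 0.72), so the control mean was not separated from either.

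The Erbb2 difference between supplemented and deficient tumours was also taken within batches. Each slide held only 1 or 2 tumours of a diet, so spread between slides cannot be told apart from spread between tumours. The difference ran from 0.23 to 1.40 over the 4 slides and was 0.61 and 0.86 on the scan days. Its positive sign there, and with any tumour left out, follows from the groups not overlapping and is no further test. Leaving out 1 tumour at a time gave 0.55 to 0.75. With normexp background correction it was 0.21 and in the deposited values 0.48. Erbb2 and array brightness had r = -0.53 over the 15 tumours after diet means were subtracted (Spearman rho -0.50; permutation p 0.0443 and 0.0580; -0.45 without deficient 4 and 5; -0.79 and -0.30 within scan days; -0.048 with normexp), which did not pass adjustment over 9 probes (0.1004 for r). The part of brightness in the diet difference was not tested beyond the fit with brightness as a covariate, in which Erbb2 supplemented minus deficient was 0.69 and Pgr 0.76.

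Red blood cell markers lay apart in the same 2 diets. Of 8 listed genes, 5 were on the array and all 5 were tested. Hbb and Hbb-b1 were well above background in every tumour, Alas2 and Ahsp on 7 of 15 arrays each and Hbe2 on 5. The mean level of the 5 ran from 0.31 to 2.19 in deficient, -1.52 to 0.75 in control and -1.44 to -0.60 in supplemented tumours. Deficient and supplemented tumours thus did not overlap, whereas they did in the other marker lists with tested genes. With diet means subtracted, the list had r = 0.17 with Pgr and 0.18 with Erbb2 over the 15 tumours (Spearman rho 0.16 and 0.29; permutation p of r 0.551 and 0.537, of rho 0.558 and 0.3001). Both had an adjusted p of 0.868 for r over 45 relations. Without deficient 1 and control 3 r was 0.10 and 0.34, and within scan days it was -0.24 and 0.75 for Pgr and 0.67 and -0.17 for Erbb2. Their part in the diet differences of Pgr and Erbb2 was not tested.

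Egfr was read by a pair of probes that did not follow each other. The brighter probe had levels of 2.22, 2.73, 2.26, 2.09 and 2.88 in deficient tumours, 2.40, 2.63, 3.00, 3.17 and 2.00 in controls, and 2.86, 2.34, 2.86, 2.84 and 2.40 in supplemented tumours. Control 5 was lowest and control 4 highest, so the control range enclosed both other diets. Its means were 2.44 ± 0.35, 2.64 ± 0.47 and 2.66 ± 0.27 (SD, n = 5). Deficient minus control was -0.20, supplemented minus control 0.02 (-0.47 to 0.51) and supplemented minus deficient 0.22. The dimmer probe, printed as 10 spots, gave -0.15, -0.06 and 0.09 for the same comparisons. Over tumours, with diet means subtracted, the 2 probes had r = 0.24 (rho 0.15; permutation p 0.380 and 0.602), 0.17 without control 4 and 5, and 0.09 and 0.55 within the scan days. Without the 3 dimmest arrays r was 0.45, and with normexp -0.51. With normexp the brighter and the dimmer probe had r = 0.70 and -0.72 with array brightness, so that value cannot decide on their relation. With the processed signals their relation to array brightness also had opposite signs, r = 0.53 (rho 0.50) for the brighter and -0.49 (rho -0.41) for the dimmer probe, neither past adjustment (0.1004 and 0.118). Statements on Egfr therefore hold for the probe named.

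Erbb3, the neuregulin receptor, had levels of -2.75, -3.88, -3.81, -2.84 and -3.74 in deficient tumours, -3.83, -3.50, -3.28, -4.99 and -3.16 in controls, and -3.28, -4.47, -4.12, -3.39 and -4.25 in supplemented tumours. Deficient 1 and 4 were highest and control 4 lowest, and the groups overlapped. With 0 of 15 arrays well above background, these values describe a spot near the floor and no difference between diets was read from them.

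**Figure D2:**
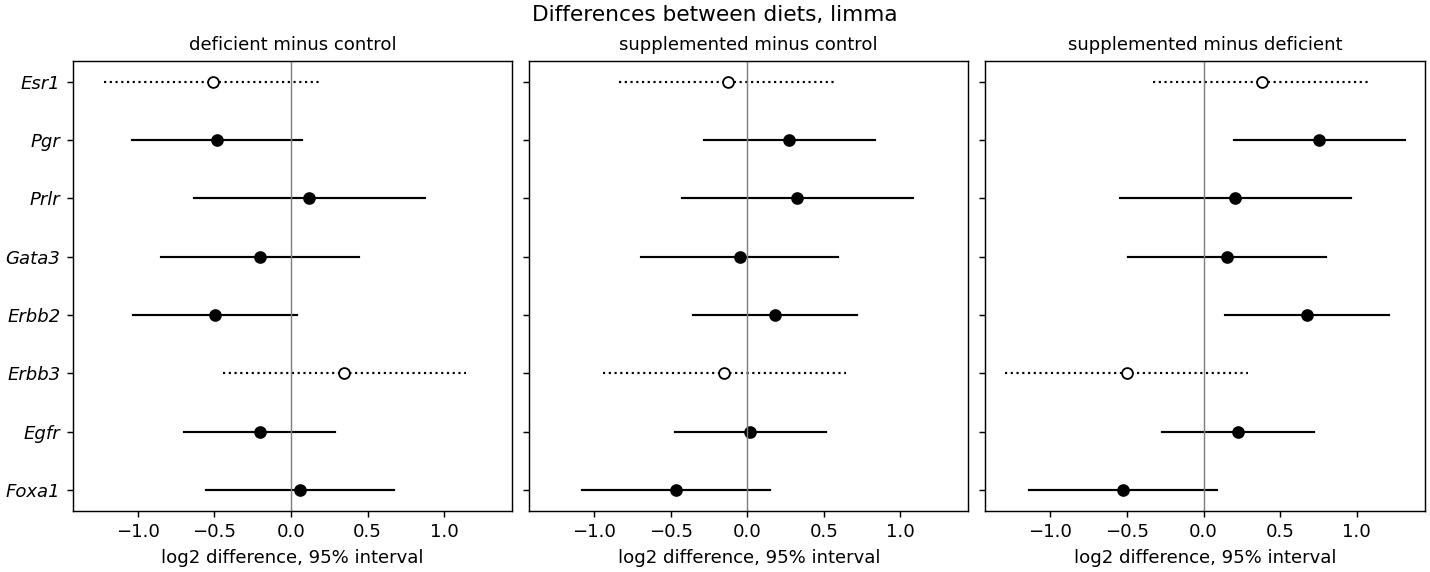
Log2 difference (x axis) of each gene in the 3 comparisons with its 95% interval from limma; filled points are tested probes, and open points with dotted lines are Esr1 and Erbb3, which were not tested. Only the supplemented minus deficient intervals of Pgr (0.20 to 1.31) and Erbb2 (0.14 to 1.21) leave out 0, before adjustment.

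The luminal factors showed no diet order that held. Gata3 had levels of 2.00, 2.14, 0.78, 1.77 and 1.58 in deficient tumours, 2.24, 1.84, 2.15, 0.75 and 2.31 in controls, and 2.12, 1.79, 1.50, 1.53 and 2.10 in supplemented tumours. Deficient 3 and control 4 stood below the other 13 tumours, which lay between 1.50 and 2.31, and the groups overlapped. The means were 1.65 ± 0.53, 1.86 ± 0.65 and 1.81 ± 0.30 (SD, n = 5), and deficient minus control was -0.20 (-0.85 to 0.44, limma adjusted p = 0.987). Foxa1, a pioneer factor, had levels of -1.53, -2.04, -2.50, -1.55 and -2.58 in deficient tumours, -2.16, -1.27, -2.77, -1.81 and -2.49 in controls, and -2.59, -2.56, -3.07, -2.47 and -2.15 in supplemented tumours. Supplemented tumours lay in the lower part of the range, with supplemented 3 lowest, but overlapped both other diets. Its supplemented minus deficient difference was -0.53 (-1.14 to 0.09, limma adjusted p = 0.729) and changed to 0.16 with normexp background correction. Every processed Foxa1 signal (12.6 to 47.8) lay below the offset of 50 that normexp adds. Foxa1 and brightness had r = -0.55 (rho -0.55; permutation p 0.0346 and 0.0369; adjusted 0.1004 and 0.131; -0.40 without deficient 4 and 5; -0.59 and -0.58 within scan days). Of the other members, Erbb3 had r = -0.53 with brightness (rho -0.58; adjusted 0.1004 and 0.131), and Esr1, Pgr, Gata3 and Prlr had r between -0.32 and 0.12. With normexp the r with brightness was -0.85 for Esr1, -0.79 for both Erbb3 and Foxa1, 0.70 for the brighter and -0.72 for the dimmer Egfr probe, 0.44 for Prlr, 0.39 for Gata3 and -0.035 for Pgr.

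The members differed in how much they varied between tumours of 1 diet. The SD within diets was 0.61 for Prlr, higher than that of 82.2% of the tested probes, 0.51 for Gata3 (71.0%), 0.48 for Foxa1 (67.0%), 0.43 for Pgr (58.2%) and 0.41 for Erbb2 (54.6%). Egfr lay near the median of 0.39, at 0.37 for the brighter probe (46.5%) and 0.36 for the other (43.1%). From the lowest to the highest tumour, Pgr spanned 4.30-fold, Prlr 3.80-fold, Erbb2 3.22-fold and Gata3 2.95-fold.

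Levels of Prlr and Gata3 were correlated between tumours, with the lowest tumours shared. After diet means were subtracted, Pearson's r over the 15 tumours was 0.77 (permutation p = 0.00099, 0.0099 after adjustment over 10 pairs of members) and Spearman's rho was 0.68 (0.00713 and 0.0713). The relation leaned on deficient 3 and control 4, the lowest tumours for both genes: without them r was 0.51 (permutation p = 0.0744). It was 0.90 over the 8 arrays of one scan day and 0.44 over the 7 of the other, 0.86 with normexp, 0.76 in the deposited values and 0.78 without the 3 dimmest arrays. Of the other 9 pairs among Pgr, Prlr, Erbb2, Egfr and Gata3, none passed adjustment. The next was Prlr with Erbb2, at r = -0.54 and rho -0.575 (permutation p 0.0396 and 0.0276; adjusted 0.198 and 0.138), at -0.58 without deficient 3 and control 4, -0.27 and -0.89 within scan days, and 0.08 with normexp. Pgr had r = 0.39 with Prlr and 0.40 with Gata3 (rho 0.38 and 0.27), which did not pass (adjusted p 0.361 for both r).

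Esr1 and Pgr, receptor and known target, also varied together. They were 1 of 7 pairs chosen after the values were seen, and other pairs of that set, given below, had r of like size. With diet means subtracted, r of Esr1 with Pgr was 0.77 and rho 0.75 (permutation p 0.00089 and 0.00175; adjusted over the 7 pairs 0.00311 and 0.00693). Adjustment over these 7 pairs does not account for their choice from the same data, so the adjusted values are a description only. Without deficient 3 and 4 r was 0.69, and within the scan days it was 0.81 and 0.74. It was 0.60 in the deposited values and 0.05 with normexp, and Esr1 was not well above background on 13 of the 15 arrays. Every processed signal of Esr1 (7.13 to 43.1) and Erbb3 (4.94 to 17.6) lay below the offset of 50 that normexp adds. With normexp both followed array brightness (r = -0.85 and -0.79), so normexp values of their pairs cannot decide on a relation. Esr1 with Erbb3, both near the floor, had r = 0.80 (rho 0.72; adjusted 0.00280 and 0.00833; 0.81 without deficient 3 and 4; 0.90 and 0.55 within scan days), 0.96 with normexp and 0.33 in the deposited values. Pgr with Erbb3 had r = 0.69 and rho 0.75 (adjusted 0.0107 and 0.00693), and r was 0.01 with normexp. Esr1 had r = 0.62 with Gata3 (rho 0.49; adjusted 0.0164 and 0.0977) and 0.43 with Prlr (rho 0.41; adjusted 0.126 and 0.150), which turned to -0.33 and -0.55 with normexp. Erbb2 with the dimmer Egfr probe had r = 0.64 (rho 0.55; adjusted 0.0164 and 0.0643), 0.44 without control 1 and 2, and 0.02 with normexp.

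**Figure D3:**
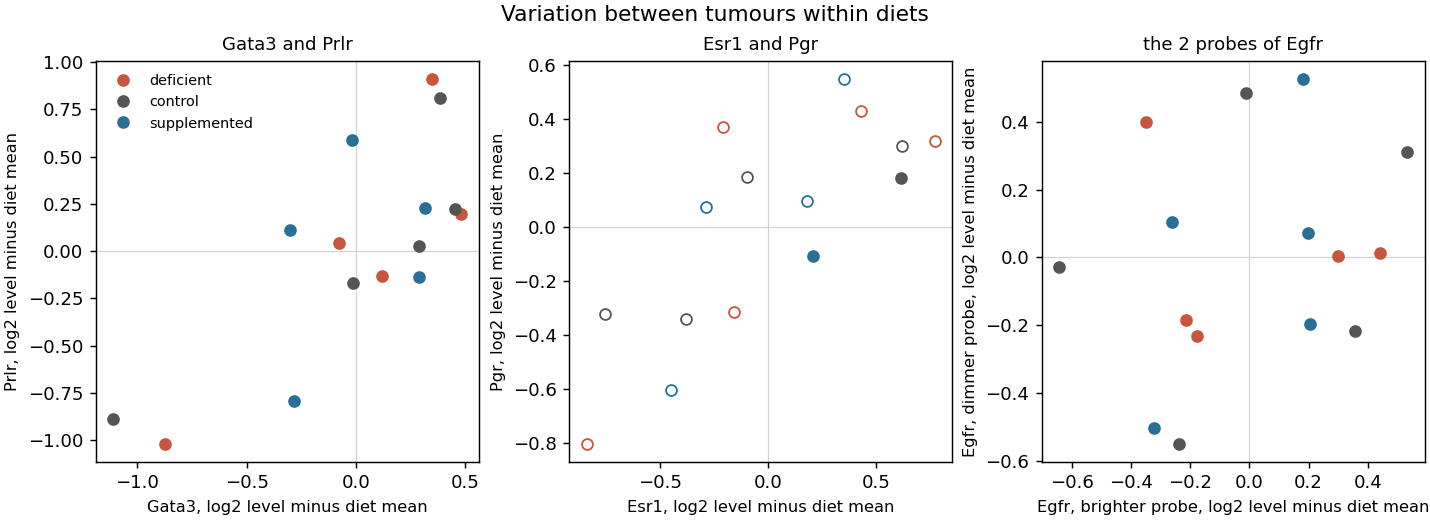
Level of 1 probe against another over 15 tumours, each minus its diet mean (both axes log2), for Gata3 with Prlr, Esr1 with Pgr, and the 2 Egfr probes; open points in the middle panel are arrays where Esr1 was not well above background. The lowest points of the left panel are control 4 and deficient 3. The 2 Egfr probes have r = 0.24, which was 0.45 without the 3 dimmest arrays. It was -0.51 with normexp, where the 2 probes followed array brightness with opposite signs.

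The relation of Erbb2 to luminal epithelium was the strongest among those between members and marker lists, but did not pass adjustment. Its r with the mean level of the 8 luminal markers was -0.74 and rho -0.725, with diet means subtracted (permutation p 0.00189 and 0.00305). The adjusted values over 45 relations of members with marker lists were 0.0850 and 0.137, and none of the 45 passed. Without control 2 and supplemented 5 it was -0.64, and within the scan days -0.43 and -0.92.

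The genes whose levels followed each member most closely were sought among 5351 genes (5352 for Foxa1) well above background on all 15 arrays. They were found by Pearson's r over the 15 tumours with diet means subtracted and are given as a description. The search placed Plcb1, a phospholipase, first for both Prlr (r = 0.95) and Gata3 (0.82). Ythdf3, an RNA-binding reader of methylated adenosine, and Tdrd3 followed for Prlr (0.92 and 0.89), and Mindy1 and Capn8 for Gata3 (0.81 and 0.80). Erbb2 was followed by Vangl2, a planar cell polarity protein (0.95), the olfactory receptor Or9i1b (0.95) and Mixl1 (0.91). Those 3 probes themselves had r = -0.70, -0.58 and -0.69 with array brightness, the same sign as Erbb2. Pgr was followed by the keratin Krt33a (0.87), the neurotrophic factor Gdnf (0.86) and Rtkn (0.86), Egfr by Prom2 (0.85), Pofut2 (0.84) and Adora2b (0.83), and Foxa1 by Ext2 (0.77), the chemokine Ccl2 (0.74) and Dpp9 (0.72). Outside the Erbb2 neighbours, the r with brightness was largest in size for Dpp9 (-0.80), Adora2b (0.55) and Gdnf (-0.52). The rest lay between -0.44 and 0.40. Several of the values with the members were lower with normexp. Prlr with Plcb1 was 0.57, Gata3 with Plcb1 0.62, Pgr with Rtkn 0.43, Egfr with Adora2b 0.47 and Foxa1 with Ext2 0.50. Gata3 with Mindy1 was -0.050 and Foxa1 with Ccl2 -0.22.

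The partners of these receptors were described by 5 lists, and no listed gene passed the adjusted threshold in any comparison (0% of all probes did). Of 22 tested ERBB ligands and regulators, 13 were higher and 9 lower in supplemented than in deficient tumours, with a median log2 difference of 0.06, beside 0.00 over all tested probes. Of 15 oestrogen and progesterone targets, 10 were higher and 5 lower, with a median of 0.14, which turned to -0.11 with normexp and -0.078 without the 3 dimmest arrays. The steroid receptor and coregulator list (10 of 17 higher, median 0.06), the prolactin and JAK-STAT5 list (7 of 15 higher, median -0.02) and the luminal list (14 of 24 higher, median 0.03) stood beside 49.9% of all tested probes that were higher. With normexp the medians of the ERBB, steroid and luminal lists were -0.0046, -0.21 and -0.36. The values over all tested probes are those without normexp, so list medians with normexp cannot be set against them. Against control, the genes that were higher in deficient and in supplemented tumours numbered 8 and 8 of 22 in the ERBB list and 6 and 5 of 15 among hormone targets. They numbered 9 and 10 of 15 in the prolactin list, 9 and 9 of 17 in the steroid list, and 12 and 13 of 24 in the luminal list. Over all tested probes 49.3% and 48.8% were higher.

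Within the ERBB list, an unadjusted limma p under 0.05 was reached by 2 of 22 genes for deficient against control, 0 for supplemented against control and 3 for supplemented against deficient, beside 3.91%, 1.98% and 7.05% of all probes. These are 4 different genes. Ereg, the ligand epiregulin, had mean levels of -0.58 ± 0.29, -0.04 ± 0.47 and 0.56 ± 0.69 (SD, n = 5) in deficient, control and supplemented tumours. Its supplemented minus deficient difference was 1.14 (limma adjusted p = 0.661), 0.63 with normexp and 0.70 in the deposited values. Erbb4, the other neuregulin receptor, was well above background on 7 of 15 arrays and had means of -1.47 ± 0.77, -1.84 ± 0.53 and -2.56 ± 0.99. Its supplemented minus deficient difference was -1.09 (adjusted p = 0.701) but 0.08 with normexp. Spry2, an inhibitor of receptor tyrosine kinase signalling, differed by 0.55 between deficient and control and by -0.59 between supplemented and deficient. With normexp these were 0.25 and -0.18, and in the deposited values 0.28 and -0.28. Ptpn11, a phosphatase that passes on growth factor signals, differed by 0.40 between deficient and control, with the same sign on all 3 of its probes, and by 0.26 with normexp.

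Genes with an unadjusted limma p under 0.05 were also counted in the prolactin, steroid, hormone target and luminal lists, in this order. For deficient against control they numbered 1 of 15, 0 of 17, 1 of 15 and 2 of 24, beside 3.91% of all probes. For supplemented against deficient they numbered 0, 2, 2 and 0, beside 7.05%. For supplemented against control there were 0 in each list, beside 1.98%. Among hormone partners, Hsd17b1, which makes oestradiol from oestrone, had means of -1.58 ± 0.30, -1.11 ± 0.45 and -0.64 ± 0.40 (SD, n = 5) in deficient, control and supplemented tumours. Its supplemented minus deficient difference was 0.94 (limma adjusted p = 0.661), 0.51 both with normexp and in the deposited values. The coactivator Ncoa2 differed by -0.64 in the same comparison, by -0.28 with normexp and by -0.36 in the deposited values. Igfbp5, an IGF-binding protein, had means of 3.46 ± 0.63, 2.40 ± 0.84 and 2.33 ± 0.68, which put deficient above control by 1.06 (adjusted p = 0.987) with a supplemented minus deficient difference of -1.13. Slc39a6, an oestrogen-regulated zinc importer, had means of 3.49 ± 0.42, 3.87 ± 0.38 and 4.06 ± 0.22, a supplemented minus deficient difference of 0.57 (adjusted p = 0.695), 0.56 in the deposited values and 0.10 with normexp. Elf5, a factor downstream of prolactin receptor in alveolar cells, differed by 1.14 between deficient and control and was well above background on 11 arrays. That difference was 0.53 with normexp and 0.47 in the deposited values. In the luminal list Kit, a receptor of luminal progenitors above background on 8 arrays, differed by 1.03 and the claudin Cldn4 by 0.41 between deficient and control. With normexp these were 0.46 and 0.13, and in the deposited values 0.32 and 0.28. The adjusted limma p of Elf5, Kit and Cldn4 was 0.987, and none of the 11 genes passed.

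**Figure D4:**
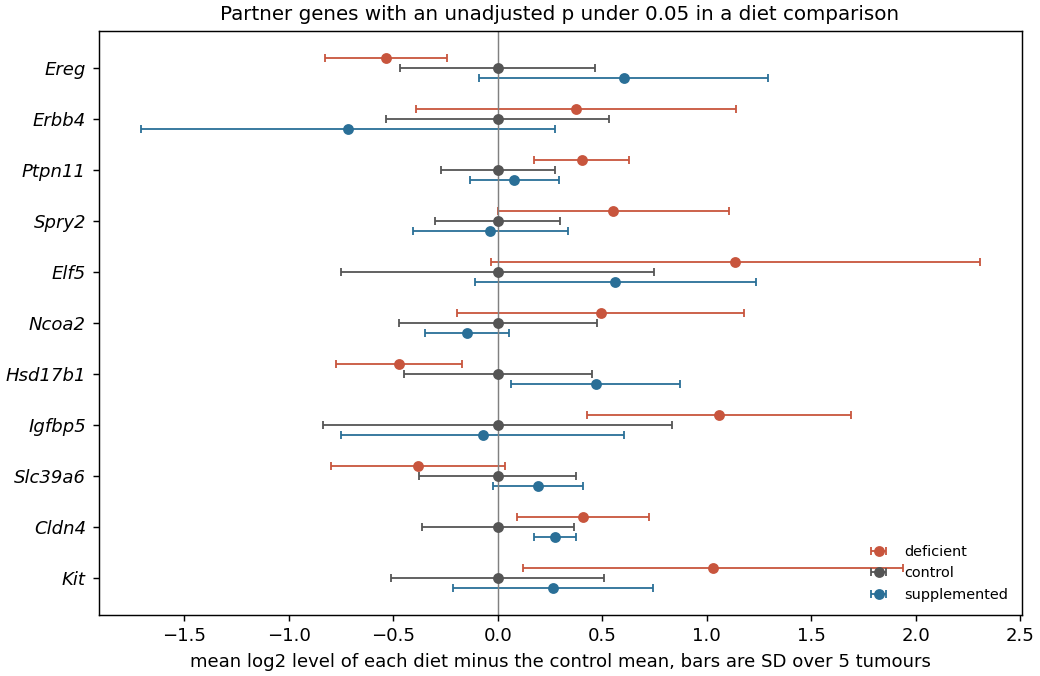
Mean log2 level of 11 partner genes in each diet minus the control mean (x axis), with bars of 1 SD over 5 tumours. The genes were picked by an unadjusted limma p under 0.05 in a diet comparison. Ereg, Hsd17b1 and Slc39a6 have their lowest mean in deficient and their highest in supplemented tumours. Erbb4, Spry2, Ncoa2 and Igfbp5 have the reverse order, and the others have their lowest mean in control. No difference shown passed the adjusted threshold.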

How the data were processed

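Total RNA of 15 tumours was labelled with Cy3 and hybridised to 4x44K whole rat genome arrays, per the labels. The deposited scanner files hold intensity values, background-subtracted and detrended, from Agilent Feature Extraction, which is version 11.5.1.1 per the file headers and 15.5 per the submitters' processing notes. The deposited table holds log2 values of 30002 probes, processed by steps not given in the sources used here. Array medians of that table were 7.09 to 7.10, and it served as an alternative. There were 0 per-sample columns that could not be mapped.

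Outlier spots and control spots were left out, log2 of the processed signal was taken minus the array's 75th percentile, and spots of a probe were averaged. A probe printed 10 times was well above background on an array when most of its spots were. Of 41012 probes, 17502 (42.7%) matched 1 rat gene through the accession (RefSeq, GRCr8). The 21010 tested probes were fitted in limma 3.58.1 (R 4.3.3) with 3 diets and no covariate. Pairwise tests and the F test were two-sided with Benjamini-Hochberg adjustment over all tested probes and a threshold of 0.05. The fitting was tested on simulated data. Single probes were also tested by two-sided exact permutation over 252 splits. Correlations used 100000 permutations, except within scan days, where r is given alone.

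Members and lists were chosen with earlier results of these data known. Genes named besides the members were list genes with an unadjusted p under 0.05 and the 3 genes closest to each member. A listed gene that is not reported here was taken out of its list, and the list's counts are without it. The brightest tested probe stands for a gene that has more than 1. Alternatives were normexp (offset 50), quantile and median scaling, the deposited values, the filter, slide, scan day, replicate number, array weights, brightness, the 3 dimmest arrays and each tumour left out. Normexp used median spot signals. That choice, the 7 pairs with Esr1, Erbb3 or the second Egfr probe, and the relations to brightness and marker lists were added after seeing the data. Arrays lay on 4 slides scanned on 2 days, 13854 to 24009 of 43379 spots per array stood well above background, 0 were saturated, and the number of arrays limits the precision.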

Additional observations from a re-analysis of the deposited data

How the results depend on the processing

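Pgr, Prlr, Erbb2, Egfr, Gata3 and Foxa1 were not called under any alternative run for them. Foxa1 could not be tested with the filter for all arrays, and Esr1 and Erbb3 were fitted in 1 setting. Over all probes 1 was called with array weights (supplemented against deficient, and the F test) and 0 to 1 when 1 tumour was left out (1 without supplemented replicate 1). Pgr supplemented minus deficient ran from 0.41 to 1.00 over 29 alternatives (adjusted p 0.398 to 0.985) and Erbb2 from 0.21 to 0.89 (0.452 to 0.985), with no change of sign. Median scaling shifted every supplemented minus deficient difference by 0.21, supplemented minus control by 0.13 and deficient minus control by -0.086.

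Signs turned as follows; the cause was not tested. With normexp, Prlr was -0.0095, -0.10 and -0.10 (deficient minus control, supplemented minus control, supplemented minus deficient), Erbb2 supplemented minus control -0.18, and Egfr -0.49 against control and -0.29 against deficient. With the same correction Gata3 supplemented minus deficient was -0.20, and Foxa1 0.31 against control and 0.16 against deficient. Egfr supplemented minus control was -0.0061 (quantile), -0.074 (deposited), -0.085 (array weights) and -0.060 (other probe). Gata3 was 0.087 for deficient minus control with array weights, and for supplemented minus control 0.077 with median scaling and 0.12 with weights. Foxa1 deficient minus control was -0.027 with median scaling, -0.025 with weights, -0.044 with brightness and -0.067 without the 3 dimmest arrays, where Prlr was -0.18.

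Leaving out 1 tumour gave Prlr -0.11 to 0.37 (deficient minus control) and -0.048 to 0.43 (supplemented minus deficient), Egfr -0.14 to 0.15 (supplemented minus control), Foxa1 -0.11 to 0.27 (deficient minus control), and Gata3 -0.48 to 0.016, -0.33 to 0.064 and -0.065 to 0.27 in the order deficient minus control, supplemented minus control, supplemented minus deficient.

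Among correlations, Prlr with Gata3 missed the threshold as Spearman's rho (0.68). Pgr with Erbb2 was 0.23 with diet means left in, and Pgr with Egfr -0.016 in the deposited values. With normexp, Prlr with Erbb2 was 0.080, Prlr with Egfr 0.37, Erbb2 with Egfr 0.33, Erbb2 with Gata3 0.074 and Egfr with Gata3 0.22. List medians went with normexp to -0.24 (prolactin, supplemented minus control), -0.19 and -0.21 (steroid, against control and deficient) and -0.40 and -0.36 (luminal, likewise). No median over all tested probes with normexp is given beside them. Hormone targets went to -0.30 against control and to -0.11 against deficient, where the median was -0.078 without the 3 dimmest arrays.

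Replicate number was not used as a pairing. Over 15 same-number pairs the mean correlation of deviations was -0.000357 and 6 exceeded 0.1. Over 60 different-number pairs the mean was 0.00107 and 16 exceeded 0.1. These values cannot show whether tumours shared a rat or litter. With a replicate block, 0 probes were called, and supplemented minus deficient was 0.68 for Erbb2 and 0.76 for Pgr (adjusted p 0.705 for both).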
